A study of Mus musculus with 8 samples.

Results

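The 37 genes described here are interferon-stimulated genes, the set of antiviral, sensing and signalling genes that cells switch on when type I interferon binds its receptor. They were chosen by symbol, with earlier results of these same libraries known, from the 56980 gene identifiers counted in the jejunal mucosa of mice lacking the free fatty acid receptor FFA2 in adipocytes. All 37 were found, and all 37 passed the filter on low counts that left 15986 genes for testing. Because the list was drawn up with the levels in these libraries in view, its levels and its co-variation between libraries are given as a description, with no p-value. The closing screen for libraries far from the rest is likewise no test of the list.

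The animals were male littermates, all carrying the FFA2 floxed allele on both chromosomes. Adipoq-F2-KO mice also carried a Cre recombinase driven by the adiponectin promoter, which is active in adipocytes, and FFA2 fl/fl mice without Cre served as floxed controls. Treatment was the same in both genotypes: at 12 weeks of age the mice moved from chow to a Western diet with 10% fructooligosaccharides (WD + FOS) for 2 weeks in thermoneutral housing. Mucosa was scraped from the opened jejunum, so each of the 4 control and 4 knockout libraries is a bulk sample of mixed cells. Libraries are called by genotype and the replicate number in their title, a number that does not pair them. The Cre acts in fat, so the receptor's own transcript in mucosa is no check of the labels. Ffar2 read between 4.18 and 9.49 normalized counts in the controls and between 5.64 and 12.0 in the knockouts, on 2 to 18 raw counts per library. Adipoq, the adipocyte gene whose promoter drives the Cre, had 59 raw counts in control 3, 27 in Adipoq-F2-KO 3 and 12 in Adipoq-F2-KO 4, and 0 to 3 in the other libraries.

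Type I interferons signal through a receptor made of IFNAR1 and IFNAR2, the kinases JAK1 and TYK2, and a transcription factor complex that holds STAT2 and IRF9. That complex binds the interferon-stimulated response element, a pair of GAAA runs a short distance apart, in the promoters of its target genes. In the gut the epithelium answers mainly to type III interferon, which uses another receptor but the same complex, and cells of the lamina propria answer to type I, so many of the same genes respond to both.

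The element is shown first because it is the sequence feature many of the genes share. RefSeq promoter windows (assembly GRCm38.p6, 250 bases before to 50 bases after the start of the transcript) were at hand for 28 of the 37. The element was searched as GAAANNGAAA on either strand, where it reads TTTCNNTTTC when reversed, and overlapping matches were counted. It occurred in 15 of the 28 genes (53.6%), against 3.99% of the 27025 genes in the whole table. It was also in 31 of 68 genes (45.6%) of a list of other interferon-stimulated genes and in 7 of 10 (70.0%) of those that lean to interferon gamma, so it is not particular to the 37. In 13 of the 28 it lay before the start, and in Ddx58 and Ifih1 it lay after it, beginning 2 and 32 bases downstream. The stretches around the matches are printed below for 11 of these genes, read 5′ to 3′ on the gene's own strand, with matches in capitals and up to 20 flanking bases in lower case.

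Isg15: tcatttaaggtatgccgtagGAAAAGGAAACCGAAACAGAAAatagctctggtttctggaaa
Bst2: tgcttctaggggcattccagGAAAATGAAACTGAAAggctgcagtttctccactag
Rsad2: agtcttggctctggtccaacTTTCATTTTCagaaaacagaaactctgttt
Oas3: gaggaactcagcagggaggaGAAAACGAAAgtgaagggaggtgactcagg
Oas1a: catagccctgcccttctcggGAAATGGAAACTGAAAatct
Oas1g: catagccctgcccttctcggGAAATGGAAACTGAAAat
Stat2: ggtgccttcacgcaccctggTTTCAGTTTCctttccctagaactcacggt
Trim30a: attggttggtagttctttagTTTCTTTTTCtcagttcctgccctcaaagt
Ifit1: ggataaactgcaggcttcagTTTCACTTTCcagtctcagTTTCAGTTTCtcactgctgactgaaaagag
Ifit3: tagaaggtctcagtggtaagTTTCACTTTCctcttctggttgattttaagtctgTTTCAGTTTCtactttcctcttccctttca
Ifit3b: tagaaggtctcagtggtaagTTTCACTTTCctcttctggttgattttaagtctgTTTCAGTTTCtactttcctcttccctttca

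Isg15 carried 3 overlapping matches in 1 run, at chr4:156200855-156200916 on the minus strand, the first of them 78 bases before the start. Bst2 (chr8:71537567-71537622, minus strand) carried 2 overlapping matches, as did Oas1a (chr5:120907526-120907565, minus strand) and Oas1g (chr5:120887614-120887651, minus strand). Rsad2 (chr12:26456543-26456592, minus strand), Oas3 (chr5:120777705-120777754, minus strand), Stat2 (chr10:128270256-128270305, plus strand) and Trim30a (chr7:104465200-104465249, minus strand) carried 1 each. Of the IFIT genes on chromosome 19, 3 carried 2 separate reversed matches each, Ifit1 at chr19:34640765-34640833, Ifit3 at chr19:34583353-34583436 and Ifit3b at chr19:34607749-34607832, all on the plus strand. The printed Ifit3 and Ifit3b stretches were identical over all 84 bases, the Oas1a and Oas1g stretches over the 38 bases they share, and the Trim30d stretch matched that of Trim30a over 50 of 50 bases. A match shows that these letters are present and says nothing of whether the complex was bound.

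Many of the genes also lie side by side. By a limit of 100 kb between neighbours, 18 of the 37 fell into 6 clusters (GRCm38). Oas2, Oas3, Oas1g and Oas1a occupied chr5:120730333-120907521, and Oasl2 and Oasl1 chr5:114896936-114937915. The 5 IFIT genes spanned chr19:34550694-34650009, Parp14, Dtx3l and Parp9 chr16:35832874-35972605, Rsad2 and Cmpk2 chr12:26442746-26479837, and Trim30a and Trim30d chr7:104409025-104507849.

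Library totals ranged from 6007654 to 21712776 counts. Libraries of the same genotype and of different genotypes correlated at 0.9245 to 0.9878 over all genes, and counts of every pair differed by far more than sampling noise (5.25 to 61.9 per gene by chi-square), so no library was a copy of another. By correlation the pair most alike was control 2 with Adipoq-F2-KO 2 (0.9878), and by chi-square it was Adipoq-F2-KO 3 with 4 (5.25). Villus enterocyte markers, summed, were within 837194 to 956234 normalized counts in every library, whereas smooth muscle markers ranged from 3691 to 29532 and were highest in control 3. In bulk samples, fewer cells of a type and less RNA per cell cannot be told apart.

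For most of the 37 genes the library numbered 2 was highest within each genotype, and 1 library was lowest in the controls. The libraries numbered 2 come from different animals that share only the number in their titles. In 32 of the 37, library 2 was the highest within both genotypes, a pattern held by 6.67% of all 15986 tested genes. In 16 of the 37 it was also at least 2-fold above the next library in both genotypes, as in 22 (0.138%) of all tested genes, these 16 included. At the other end, floxed control 1 was the lowest of all 8 libraries for 28 of the 37, compared with 11.6% of tested genes. No single knockout library was low throughout, as the lowest knockout was library 1, 3 or 4 depending on the gene. Together the 37 took 0.150% of all counts in control 1 and 0.385% in Adipoq-F2-KO 2.

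**Figure D1:**
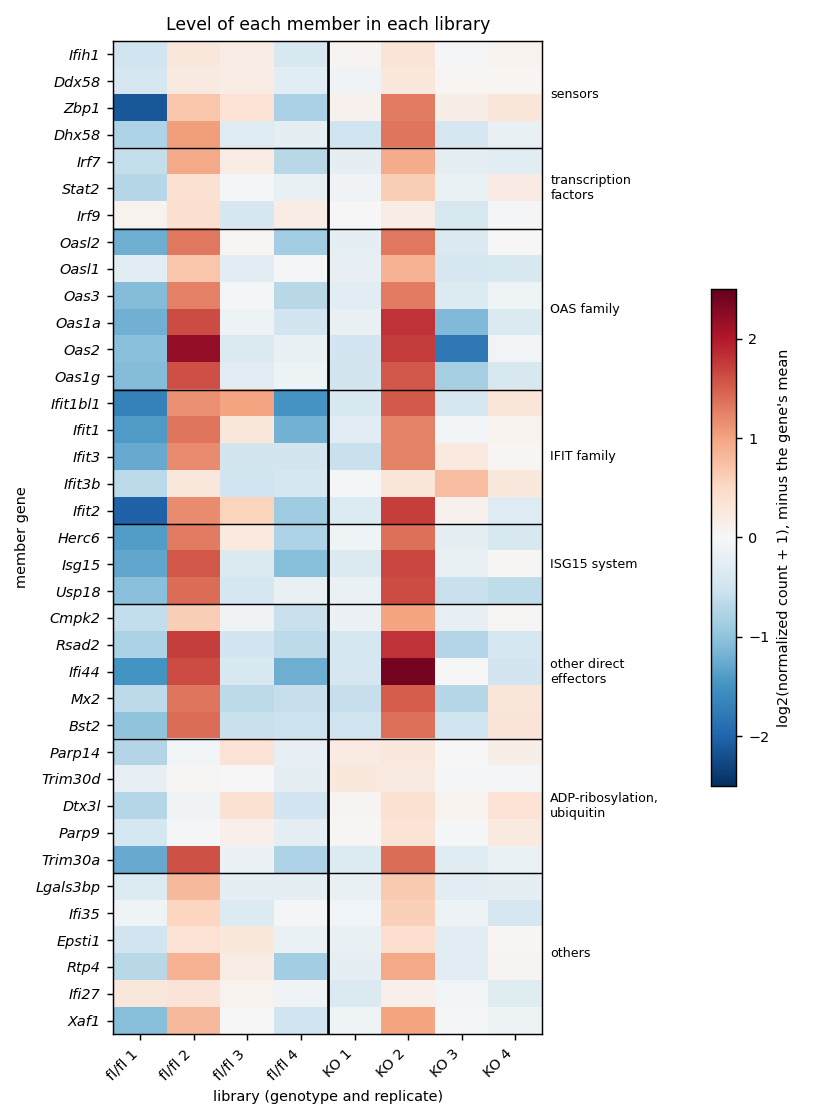
Heat map of the 37 genes (rows, grouped by role) in the 8 libraries (columns), coloured by log2(normalized count + 1) minus the gene's mean over the libraries. Library 2 is the reddest column of both genotypes for 32 of the 37 genes, and control 1 is the lowest of all 8 for 28.

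Isg15 encodes the small ubiquitin-like protein that is conjugated to other proteins after interferon. Its normalized counts, that is counts divided by the library's DESeq2 size factor, were 81.2, 591, 155 and 94.4 in floxed controls 1 to 4 and 156, 639, 176 and 205 in Adipoq-F2-KO 1 to 4. Library 2 stood 3.82-fold above the next control and 3.12-fold above the next knockout, and the other 3 knockouts, at 156 to 205, lay just above the other 3 controls, at 81.2 to 155. Herc6, the ligase that attaches ISG15 in mice, read 109.7, 716, 343 and 171 in the controls and 268, 761, 248 and 220.0 in the knockouts. It followed the same order at the top, with library 2 again 2.09-fold and 2.83-fold above the next, and control 1 was lowest. Usp18, which removes ISG15 and also blunts signalling at the receptor, spanned 70.3 to 384 in the controls and 94.0 to 456 in the knockouts.

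The 2′-5′ oligoadenylate synthetases make the second messenger that activates RNase L on double-stranded RNA. Oas3 was at 302, 1529, 623 and 398 in floxed controls 1 to 4 and 528, 1587, 505 and 596 in Adipoq-F2-KO 1 to 4. Its level in library 2 was 2.45-fold and 2.66-fold above the next library, and control 3, at 623, was the highest of the others. Oasl2, a family member with ubiquitin-like domains, read 538, 3126, 1301 and 687 in the controls and 1055, 3149.6, 977 and 1271 in the knockouts. The libraries numbered 2 lay close together across genotypes, and the other knockouts stayed within 977 to 1271. Oasl1, a related gene known to limit Irf7 translation, read 613, 1181, 611 and 722 in the controls and 633, 1341, 547 and 560.2 in the knockouts, a narrower range of 2.45-fold from lowest to highest library. Oas2, Oas1a and Oas1g were lower and varied more. Their highest library was 16.6, 8.31 and 6.66 times their lowest, and in Oas2 the lowest was Adipoq-F2-KO 3 at 18.0. Of the 75-base stretches of their transcripts, 47.6% in Oas1a and 36.9% in Oas1g also occur in the other gene, so the split of reads between them is uncertain.

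IFIT proteins bind viral RNA that lacks the host's cap marks. Ifit1 read 254, 1738, 822 and 302 in floxed controls 1 to 4 and 572, 1619, 655 and 726 in Adipoq-F2-KO 1 to 4. Library 2 was again highest in both genotypes, by 2.11-fold and 2.23-fold, and control 3, at 822, was above the remaining 2 controls and all 3 remaining knockouts. Ifit1bl1 read 197, 1404, 1274 and 231 in the controls and 488, 1846, 477 and 789.6 in the knockouts. In this gene control 3 came within 1.10-fold of control 2, so the controls lay as 2 low and 2 high values. Ifit3b read 36.95, 72.2, 41.8 and 44.1 in the controls and 57.6, 73.8, 102 and 71.4 in the knockouts. Here the highest knockout was library 3 and not library 2, and control 2 lay within the range of the knockouts. Ifit3, with 34.5 to 191 in the controls and 56.8 to 201 in the knockouts, and Ifit2, with 9.69 to 97.5 and 33.2 to 142, had library 2 highest in both genotypes. Ifit3 and Ifit3b share 41.1% and 35.7% of their 75-base stretches with each other, and reads within them may have been counted for neither gene.

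Among the other direct effectors, Rsad2 (viperin) makes a chain-terminating nucleotide from CTP and Cmpk2, its neighbour, is a nucleotide kinase that supplies CTP. Rsad2 was at 99.96, 582, 125 and 109.9 in floxed controls 1 to 4 and 128, 614, 104 and 128 in Adipoq-F2-KO 1 to 4. The 3 remaining libraries of each genotype stayed within 99.96 to 128, and library 2 was 4.64-fold and 4.80-fold above the next. Cmpk2 had the same top libraries at a smaller ratio, with 396, 923, 565 and 410.2 in the controls and 545, 1189, 523 and 613 in the knockouts. Ifi44, a cytoplasmic protein of poorly known action, read 21.8, 196, 48.1 and 26.3 in the controls and 46.6, 333, 62.1 and 45.1 in the knockouts. Adipoq-F2-KO 2 was 5.36-fold above the next knockout, the largest such step among the 37 genes in the knockouts. Mx2, a dynamin-like GTPase gene that the annotation lists as a polymorphic pseudogene, read 31.5, 128, 31.4 and 33.3 in the controls and 33.2, 145, 30.0 and 62.0 in the knockouts. Controls 1, 3 and 4 were within 31.4 to 33.3, and Adipoq-F2-KO 4 was intermediate. Bst2 (tetherin), which holds budding virus at the membrane, ranged from 18.2 to 101 in the controls and 26.0 to 99.2 in the knockouts.

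Irf7, the factor that amplifies interferon production, was at 783, 2282, 1340.4 and 737 in floxed controls 1 to 4 and 1008, 2269.8, 1001 and 968 in Adipoq-F2-KO 1 to 4. Controls 2 and 3 were highest among the controls, and the 3 knockouts other than library 2 lay within 968 to 1008. Stat2, a transcription factor of the complex, read 661, 1409, 1062 and 956 in the controls and 1024, 1660.3, 971 and 1263 in the knockouts, a 2.51-fold range in which all knockouts lay inside or above the control range. Irf9, the DNA-binding partner, stayed between 372 and 655 in all libraries, and its exons overlap Rnf31 on the same strand. Irf7 exons overlap Phrf1 on the opposite strand, and as the strand setting of the counting is not given in the sources used here, both levels may include reads of the neighbour.

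Of the 4 sensors, Ifih1 and Ddx58 varied little between libraries, and Zbp1 and Dhx58 varied more. Ifih1 (MDA5) read 1127, 1918, 1809 and 1205 in floxed controls 1 to 4 and 1662, 1971, 1538 and 1683 in Adipoq-F2-KO 1 to 4. Library 2 was highest but by only 1.06-fold and 1.17-fold. Ddx58 (RIG-I) read 978, 1526, 1478 and 1079 in the controls and 1225, 1555, 1353 and 1344 in the knockouts, and its range of 1.59-fold was among the narrowest of the 37. Zbp1, a sensor of Z-form nucleic acid that can start necroptosis, read 81.2, 576, 456 and 203 in the controls and 384, 871, 400.4 and 436 in the knockouts. Control 1 was the lowest library, and every knockout exceeded controls 1 and 4. Dhx58 (LGP2), the regulator of both RNA sensors, ranged from 54.5 to 196 in the controls and 66.3 to 240 in the knockouts, with library 2 highest in both.

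Parp9, Parp14 and Dtx3l form a neighbourhood whose products act in ADP-ribosylation and ubiquitination during the interferon response. They departed from the common order. Parp14 read 2503, 3992, 5364 and 3587 in floxed controls 1 to 4 and 4822, 4980.4, 4186 and 4627 in Adipoq-F2-KO 1 to 4. Control 3 was the highest of all 8 libraries, and the 4 knockouts fell in a narrow band, within 4186 to 4980. Control 3 was likewise the highest control for Parp9 (1539) and Dtx3l (2434), and control 1 was the lowest library for all 3. Exons at the 5′ ends of Parp9 and Dtx3l overlap on opposite strands, and Parp14 exons overlap Gm49730 on the same strand, so reads there may be shared. Trim30d, a TRIM ubiquitin ligase, read 1756, 2045, 1991 and 1734 in the controls and 2405, 2358, 1942 and 1978 in the knockouts, the narrowest range of the 37 at 1.39-fold. Its neighbour Trim30a, which restrains Toll-like receptor signalling, read 109, 799, 238 and 154 in the controls and 208, 693, 212 and 235 in the knockouts, with library 2 at 3.35-fold and 2.95-fold above the next. The adjacent pair therefore had ranges of 1.39-fold and 7.32-fold over the same libraries.

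Of the remaining genes, Lgals3bp, a secreted galectin-binding glycoprotein, read 2389, 5306, 2576 and 2535 in floxed controls 1 to 4 and 2666, 4761, 2495 and 2591 in Adipoq-F2-KO 1 to 4. Apart from library 2 of each genotype its levels lay within 2389 to 2666. Ifi35 read 513, 799.6, 435 and 540.2 in the controls and 531, 836, 507 and 409.8 in the knockouts, and its highest library was 2.04 times its lowest. Xaf1, a pro-apoptotic interferon target, read 62.4, 231, 132 and 92.1 in the controls and 121, 262, 128 and 120.3 in the knockouts. In Xaf1 library 2 was 1.75-fold and 2.04-fold above the next. Rtp4 ranged from 99.1 to 355 and Epsti1 from 341 to 635 over all 8 libraries, both highest in library 2 of each genotype. Ifi27 stayed between 151 and 241 and was the only gene of the 37 with a correlation below 0.3 to the mean of the others.

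**Figure D2:**
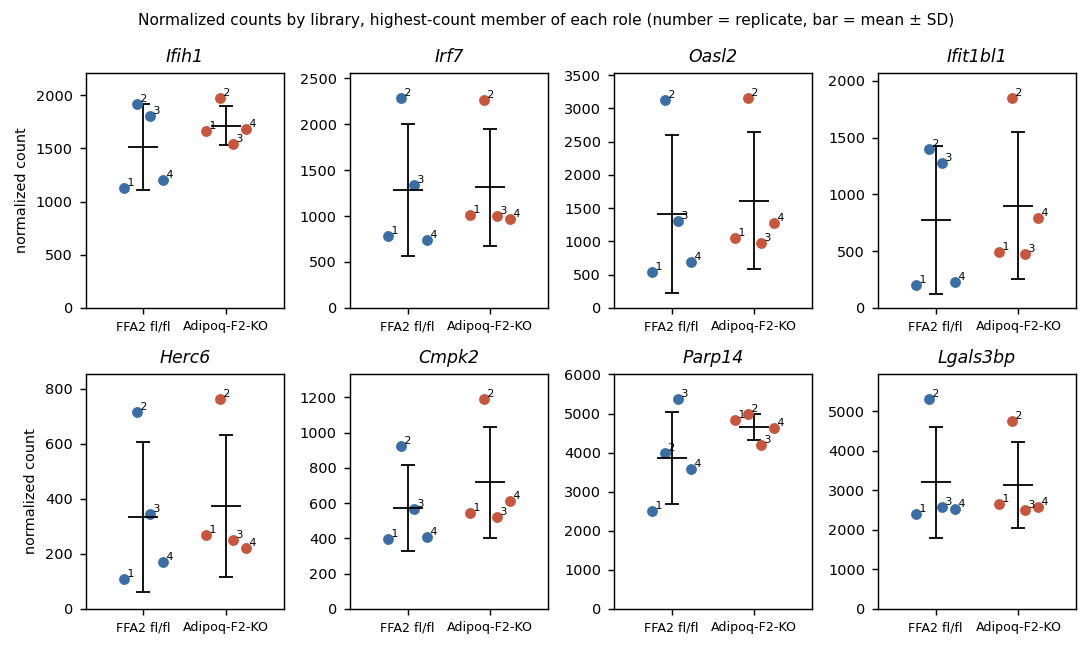
Normalized count (vertical axis, linear from 0) of the highest-count gene of each of the 8 roles in each library, with the replicate number beside each point and a bar for mean ± SD (n = 4). Library 2 is the top point of both genotypes in every panel but that of Parp14, where control 3 is highest at 5364.

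Per kilobase of exon, which allows levels to be compared between genes, Lgals3bp was the most abundant at 1112 normalized counts per kb averaged over the libraries, followed by Trim30d (539) and Parp14 (458). Ifit1bl1 (371), Isg15 (347) and Irf7 (344) came next. Ifit2 (14.2), Ifi44 (15.9) and Mx2 (17.1) were the lowest of the 37, and the median was 121.

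The range over libraries separated the genes into those that varied strongly and those that hardly varied. For 17 of the 37 the highest library was at least 5 times the lowest, for 13 it was 2 to 5 times, and for 7 it was under 2 times. Among all tested genes with a mean of at least 50 normalized counts, 3.06% reached 5-fold. The 7 narrow genes were Ifi27, Irf9, Trim30d, Ddx58, Ifih1, Parp9 and Epsti1. The highest-to-lowest ratio had a median of 6.15 in the 13 genes with an element before the start and 2.45 in the 15 with none there, with ranges of 1.39 to 9.37 and 1.59 to 15.3 that overlap.

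To follow the genes together, a module score was computed per library as the mean over the 37 of log2(normalized count + 1), each gene centred on its mean over the 8 libraries. The score was -0.86, 0.92, -0.06 and -0.50 in controls 1 to 4 and -0.21, 1.05, -0.26 and -0.07 in Adipoq-F2-KO 1 to 4. Mean scores were -0.13 ± 0.77 in the controls and 0.13 ± 0.62 in the knockouts (SD, n = 4 each), a difference of 0.25 that is smaller than either SD. The order of the libraries by score was not that by depth. Control 1 was the second deepest library and had the lowest score, and control 3 was the shallowest and had the third highest.

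Over the 8 libraries the 666 pairs of genes had a median Pearson r of 0.832, and 543 of the pairs exceeded 0.5 while 16 were below 0. These points share library, depth and size factor, and the genes were chosen with earlier results of them known, so the values describe the list only. Oas3 with Trim30a (r = 0.996) and Oas3 with Oasl2 (r = 0.995) were the closest pairs, and Ifi27 with Parp14 (r = -0.43) and Irf9 with Dtx3l (r = -0.39) the farthest apart. Against the mean of the other 36 genes, 23 of the 37 had r of at least 0.9. Among all tested genes 50 (0.313%) did, a count that includes these 23, with genes outside the list set against the full score. Within clusters, pairs of Oas2, Oas3, Oas1g and Oas1a ranged from 0.879 to 0.983, those of Parp14, Dtx3l and Parp9 from 0.898 to 0.961, and those of the IFIT genes from 0.438 to 0.957.

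When each gene's deviation from its genotype mean was used, the median r was 0.849. Without the pair of libraries numbered 2 it was lower, at 0.600 over the 6 others, and pairs ranged from -0.85 to 0.996. In those 6 libraries Oas3 (r = 0.997), Trim30a (0.993), Oasl2 (0.986), Zbp1 (0.978) and Parp9 (0.976) still followed the mean of the rest closely, whereas Ifi27 (-0.65), Ifi35 (-0.62), Irf9 (-0.62) and Oasl1 (-0.38) ran against it. Leaving out both libraries was decided after their levels were seen.

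The genotype comparison asked whether loss of the receptor in fat changed these genes in jejunum. None of the 37 passed the adjusted threshold of 0.05 in DESeq2, fitted on all 15986 genes, where 0.0375% of tested genes did. The adjusted p was 0.9998 for each of the 34 genes that had one. At an unadjusted p below 0.05 there was 1 of the 37 higher in the knockouts and 0 lower, against 1.65% and 1.38% of tested genes, and edgeR's quasi-likelihood test also found 0 adjusted and 1 unadjusted. No gene of the 37 had all knockouts above all controls, which 1.1% of tested genes did, and none had all knockouts below, which 1.02% did. With both libraries numbered 2 left out, all 3 knockouts were above all 3 controls for 3 of the 37 (Isg15, Ifit3b and Bst2), as for 4.18% of tested genes, and below for 0, as for 3.87%. In that fit, chosen after the levels were seen, log2 fold changes with their SE were 0.73 ± 0.29 for Isg15 (DESeq2 unadjusted p = 0.0126), 0.88 ± 0.36 for Ifit3b (0.0147) and 0.52 ± 0.49 for Bst2 (0.296), each with an adjusted p of 0.99997.

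The log2 fold change of Adipoq-F2-KO over control was positive for 30 of the 37 and negative for 7, with a median of 0.18 (range -0.33 to 0.74), beside 48.5% positive and a median of -0.01 for all tested genes. The 37 varied together across libraries, so their signs are not separate observations. The sign of the median changed with single libraries. The median was -0.35 without Adipoq-F2-KO 2, -0.03 without control 1 and 0.04 without control 4, and it was 0.76 without control 2, 0.32 without Adipoq-F2-KO 1 and 0.34 without Adipoq-F2-KO 3. It was 0.25 with both libraries numbered 2 left out and 0.47 over the 5 libraries above 10000000 counts.

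The gene with the smallest p was Ifit3b. It averaged 48.8 ± 15.9 in the controls and 76.2 ± 18.7 in the knockouts (SD, n = 4 each), a log2 fold change of 0.61 (95% confidence interval 0.02 to 1.19, unadjusted p = 0.0437, DESeq2 adjusted p = 0.9998). The knockouts spanned 57.6 to 102 and the controls 36.95 to 72.2, which overlap. Its near copy Ifit3 had 0.35 ± 0.51 (SE) with library 2 highest in both genotypes.

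The cluster on chromosome 16 and Trim30d had small differences with small errors. Log2 fold changes, with their SE, were 0.40 ± 0.22 for Dtx3l, 0.28 ± 0.15 for Parp9, 0.27 ± 0.20 for Parp14 and 0.21 ± 0.12 for Trim30d, each with an adjusted p of 0.9998. All 4 knockouts were above controls 1 and 4 for Dtx3l and for Parp9, while control 3 was above 3 of the 4 knockouts for Dtx3l. Without control 3, Dtx3l passed the threshold (log2 fold change 0.63, DESeq2 adjusted p = 0.0204), the only call among the 37 under any alternative run. In that fit 109 of 15800 tested genes (0.69%) were called, against 6 of 15986 with all libraries. Parp14 was likewise 0.47 without control 3 (DESeq2 adjusted p = 0.158) and 0.11 without control 1 (0.99992). Control 3 was also the library with the most smooth muscle signal and the most Adipoq (123 normalized counts, against 0 to 1.58 in the other controls). The part of Adipoq-expressing tissue in this difference was not tested, and that of smooth muscle was not tested beyond a fit with the smooth muscle score as covariate, in which Dtx3l had 0.39 and an adjusted p of 0.356.

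Genes with a wide range over libraries also had wide errors. Oas2 had -0.33 ± 0.98 (SE), Ifi44 0.74 ± 0.98, Oas1a 0.13 ± 0.87, Rsad2 0.09 ± 0.86 and Isg15 0.35 ± 0.81, so for these a change of either sign and of more than 2-fold lies within the 95% interval. DESeq2 gave no p for Isg15, Rsad2 and Ifi44 because its outlier rule marked a library. With that rule off their adjusted p was 0.9998. The median SE of the 37 was 0.49, beside 0.24 for all tested genes. The sensors (4 of 4), the IFIT genes (5 of 5), the ISG15 genes (3 of 3), the direct effectors (5 of 5) and the ADP-ribosylation and ubiquitin genes (5 of 5) had positive log2 fold changes, and the negative ones were those of Oas2, Oas1g, Oasl1, Irf9, Ifi27, Lgals3bp and Ifi35.

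**Figure D3:**
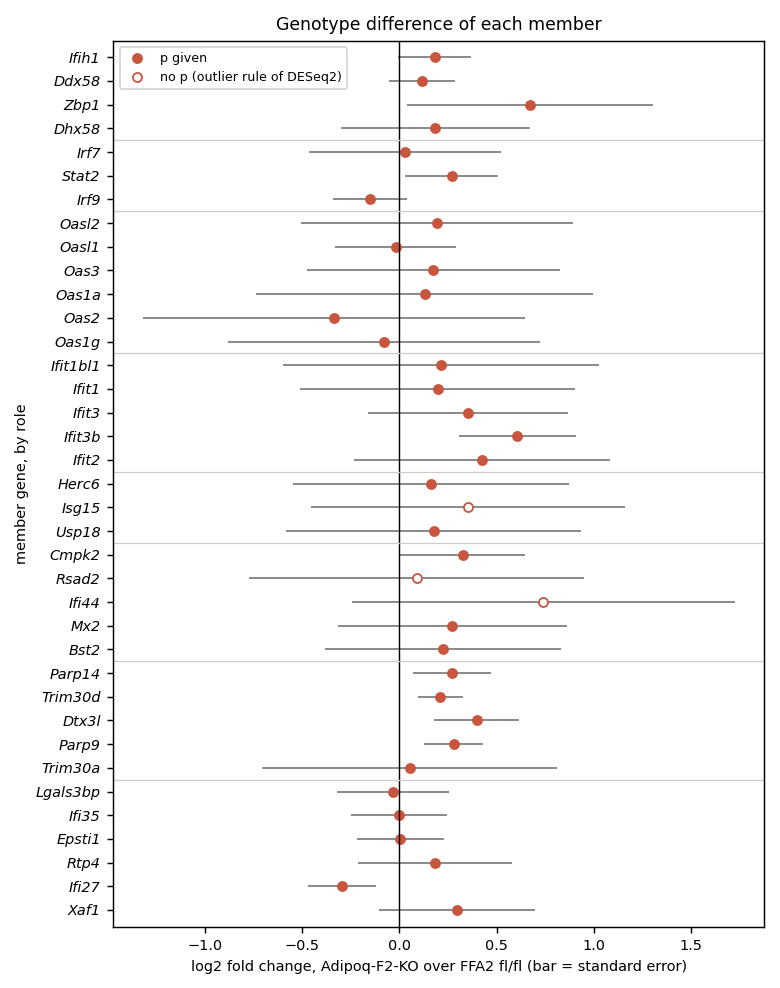
Log2 fold change of Adipoq-F2-KO over FFA2 fl/fl (horizontal axis) for each of the 37 genes, ordered by role, with bars for the standard error and open points for the 3 genes without a p. Positive values, 30 of 37, mostly have bars that reach 0.

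The rest of the pathway was followed in 6 lists. Of the 20 interferon genes themselves, only Ifnk passed the filter on low counts, and it lay between 16.7 and 45.7 normalized counts in the controls and between 34.0 and 37.6 in the knockouts. The transcripts of Ifna1, Ifna4, Ifna5, Ifna6, Ifna7, Ifna9, Ifna11, Ifna12, Ifna13, Ifna14, Ifna15, Ifna16 and Ifnab had 0 counts in all 8 libraries, which allows up to 3 counts per library. Ifnb1 and Ifne had 1 count each over all libraries, Ifna2, Ifnl2 and Ifnl3 had 2, and Ifng had 7. At this depth interferon transcripts other than Ifnk were not detectable above the floor in either genotype, also not in the libraries where the 37 genes were highest.

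All 11 genes of the receptor and JAK-STAT list were measured. The receptor chains hardly varied, with Ifnar1 at 798 to 939 in the controls and 714 to 854 in the knockouts and Ifnlr1, the epithelial type III receptor chain, at 604 to 751 and 570 to 684. Of the 11, 5 had a positive and 6 a negative log2 fold change, with a median of -0.02, and 1 was higher before adjustment and 0 after it in DESeq2. Among 16 genes of nucleic acid sensing, Irf1 (0.41, DESeq2 unadjusted p = 0.0161) and Trim25 (0.22, DESeq2 unadjusted p = 0.0489) were higher before adjustment, 5 of 16 had library 2 highest in both genotypes, and the median was 0.19. Of 15 measured genes that restrain the response, Nlrc5 (0.76, DESeq2 unadjusted p = 0.0397) was the only gene higher before adjustment, the median was 0.12, and Trex1 had 0 counts in every library, as did Ifi44l of the next list. The DESeq2 adjusted p was 0.9998 for each of Irf1, Trim25 and Nlrc5.

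A broader list of 82 other interferon-stimulated genes held 65 that were tested. Library 2 was highest in both genotypes for 42 of the 65, and 14 had r of at least 0.9 with the score of the 37. Their median log2 fold change was 0.22, with 55 positive and 10 negative, 0 past the adjusted threshold and 4 higher before adjustment. Cd274, which encodes the checkpoint ligand PD-L1, read 18.2, 45.3, 43.9 and 13.2 in the controls and 67.9, 89.9, 40.0 and 65.8 in the knockouts (log2 fold change 1.18, unadjusted p = 0.0065). All 4 knockouts exceeded controls 1 and 4, and controls 2 and 3 lay above the lowest knockout. The immunoproteasome genes Psmb10 (0.29, DESeq2 unadjusted p = 0.0209) and Psmb9 (0.52, DESeq2 unadjusted p = 0.0233) were the next, each with a DESeq2 adjusted p of 0.9998, as for Cd274.

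Genes that lean to interferon gamma differed from the 37 in the place of control 2. Their score was -1.01, -0.03, 0.24 and -0.60 in controls 1 to 4 and 0.28, 0.62, 0.27 and 0.23 in the knockouts, so that control 2 was below all 4 knockouts, whereas in the score of the 37 it was above 3 of them. Control 1 was lowest, control 4 next and Adipoq-F2-KO 2 highest in both scores. By summed normalized counts the order of the gamma-leaning list was another. Control 3 was highest at 6696, above the knockouts at 2645 to 4853, and control 2, at 2675, was above Adipoq-F2-KO 4 at 2645. The scores correlated at r = 0.657 over the 8 libraries, which share depth and size factor between the lists, and at 0.944 over the 6 left without both libraries numbered 2. Of 16 tested, 4 were higher and 1 lower before adjustment, against 1.65% and 1.38% of all tested genes, and 0 after it. The median log2 fold change was 0.50, beside -0.01 for all tested genes. Cxcl9 (1.36, unadjusted p = 0.0020, DESeq2 adjusted p = 0.742), Iigp1 (1.64, DESeq2 unadjusted p = 0.0164, adjusted p = 0.9998) and Irgm2 (1.09, DESeq2 unadjusted p = 0.0285, adjusted p = 0.9998) led that list. In 5 of the 16 library 2 was highest in both genotypes.

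**Figure D4:**
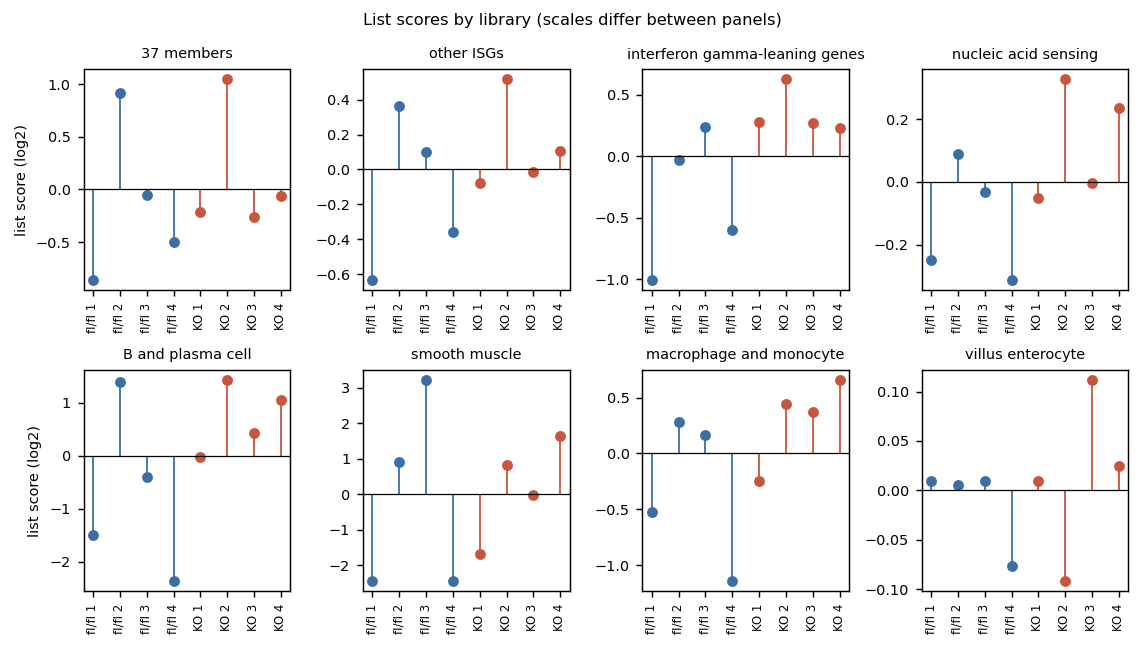
Score of the 37 genes and of 7 other lists (vertical axis, mean of centred log2 values, with a separate scale in each panel) in each of the 8 libraries. The 37 genes and the 82 other interferon-stimulated genes (labelled other ISGs) peak in library 2 of both genotypes, the B and plasma cell score is also highest there (1.38 and 1.42), and the smooth muscle score peaks in control 3 (3.21).

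Markers of cell types were set beside the score because the samples are mixed. The B and plasma cell score, a mean over 6 of the 7 markers, was -1.50, 1.38, -0.40 and -2.37 in controls 1 to 4 and -0.03, 1.42, 0.43 and 1.05 in the knockouts, highest in the same libraries as the score of the 37. Of its 6 tested genes 4 had library 2 highest in both genotypes. Summed as normalized counts, the 7 markers read 6763, 16239.9, 5803 and 2648 in the controls and 5498, 9661, 11276 and 10818 in the knockouts, so the sum was highest in library 2 in the controls but in library 3 in the knockouts. Their part in the levels of the 37 was not tested. Macrophage and monocyte markers summed to 223 to 613 in the controls and 424 to 789.6 in the knockouts, with their highest score in Adipoq-F2-KO 4 (0.65). Plasmacytoid dendritic cell markers, of which Siglech is the defining gene, gave scores of -0.45, 0.24, -0.04 and -0.23 in the controls and 0.19, 0.28, -0.17 and 0.17 in the knockouts, while Siglech itself was highest in control 4 among the controls (12.4 normalized counts) and in Adipoq-F2-KO 1 among the knockouts. This list, too, had its highest score in library 2 of both genotypes, which the T and intraepithelial lymphocyte, endothelial, proliferation and villus enterocyte lists did not. The plasmacytoid score is a mean over 6 of the 8 markers, and only 2 of the 8 had library 2 highest in both genotypes. Taken singly, these markers had a median r of 0.249 with the score of the 37. Before adjustment, Top2a (log2 fold change 0.33), Mki67 (0.35), Lyz2 (0.95) and Cd4 (1.10) were higher and Egfl7 (-0.74) lower in the knockouts, with DESeq2 adjusted p of 0.976 for Cd4 and 0.9998 for the others. By list, the median log2 fold change was 0.54 for macrophage and monocyte markers (10 of 10 positive) and 0.91 for B and plasma cell markers (6 of 6 positive). It was -0.92 for smooth muscle (9 of 9 negative) and 0.01 to 0.26 for the remaining marker lists. The smooth muscle score was 3.21 in control 3 and 1.65 in Adipoq-F2-KO 4, above 0.90 and 0.82 in the libraries numbered 2. Over the 8 libraries its r with the score of the 37 was 0.538 (rho 0.738), and without both libraries numbered 2 it was 0.786. The same r was 0.799 and 0.720 for the B and plasma cell score, 0.832 and 0.860 for the plasmacytoid dendritic cell score and 0.595 and 0.681 for the macrophage and monocyte score. These are descriptions over libraries that share depth and size factor between lists.

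The genes outside the list whose pattern was most like it were ranked by Pearson r with the score over the 8 libraries, among 10189 tested genes with a mean of at least 50 normalized counts. The 10 closest were Rnf213 (r = 0.992), Ddx60 (0.99), Daxx (0.977), Trafd1 (0.976), Apol9a (0.97), Trim34a (0.968), Trim12a (0.961), Adar (0.959), Tor3a (0.957) and Shisa5 (0.956). Ddx60, a helicase, read 627, 3181, 1336 and 716 in the controls and 1054, 3206, 1133 and 1124 in the knockouts. Rnf213, a large ubiquitin ligase, read 4056, 12805, 6999 and 5804 in the controls and 6641, 15511, 5758 and 6862 in the knockouts. Both had library 2 highest in each genotype and control 1 lowest of all. Of the 10189 genes ranked, 24 reached r of 0.9, and 13 of these were on the list of other interferon-stimulated genes. Daxx, a chromatin-associated protein gene, combined a high r with a narrow range of 192 to 299 over all libraries.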

How the data were processed

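RNA-seq was done on jejunal mucosal scrapings of 4 FFA2 fl/fl and 4 Adipoq-F2-KO mice, with poly-A-selected stranded libraries read from 1 end over 75 bases. The authors trimmed reads with Trimmomatic, used STAR for alignment and featureCounts to assign reads to Ensembl genes (versions not given in the sources used here), and the deposited values are raw counts per gene, neither normalized nor pooled. The submitters' processing notes name GRCm38 and mm10. The annotation release, the strand setting and the handling of reads with several matches are not given in the sources used here. Of 56980 identifiers, 52125 had a symbol in GENCODE M21, and identifiers without one held 0.71% of counts.

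Groups and replicate numbers were taken from sample titles. The members and all lists were chosen with earlier results of these data known. A gene entered the fit when 4 or more libraries had 10 or more counts. Testing used DESeq2 1.42.0 in R 4.3.3 (genotype as the only term, two-sided Wald test, Benjamini-Hochberg adjustment over all tested genes, threshold 0.05). The fit was first tested on simulated data. Alternatives used edgeR 4.0.16, limma-voom (limma 3.58.1), TMM factors, other filters, a replicate block, a smooth muscle covariate, the 5 libraries above 10000000 counts, and each library left out. Replicate numbers were checked by correlating deviations from the genotype means of same-numbered libraries. Nothing states that libraries are separate litters or batches, so p-values measure the spread between these samples. Intervals and floors (3 counts) cover counting error only for single libraries, as reads carried no molecular identifiers. Exon lengths are unions of M21 exons. Every one of the 37 genes is named, and values in every library are given for the 2 with the highest mean count in each role, for any with an unadjusted p below 0.05 and for any with a library far from the other 3. Results for some genes are not reported here.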

Additional observations from a re-analysis of the deposited data

Results flagged for a closer look

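Within each genotype the most distant of the 4 libraries was compared with the others on the log2(normalized count + 1) scale by Dixon's ratio, the gap to the nearest library divided by the whole range, and those above the 95% critical value for 4 samples are given. The 37 genes were chosen with these levels known, so the ratio describes single libraries and is no test of the list. Chance alone passes it in about 1 of 20 groups of 4, and among all tested genes 6.36% passed in the controls and 5.44% in the knockouts. Of the 37 genes, 3 passed in the controls and 10 in the knockouts, and in each case the distant library was number 2 and was high. In the knockouts these were Irf7 (ratio 0.953), Xaf1 (0.919), Trim30a (0.897), Lgals3bp (0.897), Rsad2 (0.885), Oas3 (0.855), Zbp1 (0.846), Ifi44 (0.842), Herc6 (0.84) and Oasl1 (0.836). In the controls they were Mx2 (0.958), Lgals3bp (0.905) and Rsad2 (0.871). The module score passed in the knockouts (0.849, Adipoq-F2-KO 2 high) and not in the controls. The genes rise and fall together, so these are not separate observations.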

How the results depend on the processing

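Members passing the adjusted threshold numbered 0 in the main DESeq2 fit and under edgeR, limma-voom, TMM factors, both other count filters, the replicate block, the smooth muscle covariate, the deep libraries and both libraries numbered 2 left out, and 0 to 1 with each library left out (Dtx3l, without control 3). Genes called over the whole table, 6 in the main fit, were 2 with edgeR, 1 with limma-voom, 3 without a count filter, 78 in the deep libraries only, and 1 to 109 with each library left out. Members at an unadjusted p below 0.05, 1 in the main fit (3.03% of all tested genes in either direction), were 0 with limma-voom (4.3%), 4 in the deep libraries (5.7%), 3 with the smooth muscle covariate (3.22%), 2 with both libraries numbered 2 left out (2.29%), and 0 to 8 with each library left out (8 without control 2, 3.05%). All were higher in the knockouts but 1 without control 4 and 1 without Adipoq-F2-KO 2. With the replicate number as a block, DESeq2 called 11 genes and put 5 members at an unadjusted p below 0.05, all higher (2.71% of all genes in either direction), and edgeR with the block called 1 gene and put 7 members there, 6 higher and 1 lower (4.2%). The same-numbered libraries correlated at 0.664, 0.319, 0.0928 and -0.53 in their deviations from the genotype means. These values cannot show whether samples were paired. In the submitters' own names the same-numbered libraries carry different numbers, so the number in the titles does not mark pairs. The block moved no member past the adjusted threshold.

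The score difference between genotypes was 0.24 to 0.57 under other pseudocounts, scalings and member filters and in the deep libraries, and -0.05 to 0.60 with each library left out. The median pairwise correlation was 0.714 by Spearman and 0.758 to 0.867 with each library left out, and 0.600 without both libraries numbered 2. Of the 23 members described in full, 16 changed sign when 1 library was left out, and their log2 fold changes ranged over Isg15 -0.37 to 1.43, Oas3 -0.40 to 0.87, Oasl1 -0.43 to 0.25, Oasl2 -0.36 to 0.94, Ifi44 -0.53 to 1.95, Ifit1 -0.26 to 0.96, Ifit1bl1 -0.41 to 0.67, Mx2 -0.45 to 1.10, Rsad2 -0.94 to 1.13, Irf7 -0.38 to 0.46, Xaf1 -0.0761 to 0.76, Ifi35 -0.25 to 0.21, Trim30a -0.58 to 1.02, Cmpk2 -0.0377 to 0.66, Herc6 -0.45 to 0.86 and Lgals3bp -0.31 to 0.32. Others that changed sign were Oasl1 (0.23), Ifi35 (0.15) and Lgals3bp (0.12) in the deep libraries, Rsad2 (-0.011) with the smooth muscle covariate and Lgals3bp (0.0404) without both libraries numbered 2. None of these differences passed the adjusted threshold in either direction. Leaving out both libraries numbered 2, the edgeR fit with the block and the DESeq2 fit without its outlier rule were chosen after seeing the data. With 4 animals a genotype and a median SE of 0.49 on the log2 scale, changes of the size of the median, 0.18, are not detectable here. The cause of the changes between fits was not tested.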
